A study of Homo sapiens with 6 samples.

Results

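The clustered protocadherins are 3 neighbouring groups of genes on human chromosome 5, PCDHA, PCDHB and PCDHG, and the regions bound by the zinc-finger transcription factor ZIC2 over them are described here. The regions were taken from 2 deposited lists, 1 for wild-type cells (WT) and 1 for cells without the zinc-finger protein ZNF263 (KO). Every region that overlapped chromosome 5 from 140160001 to 140900000 (740 kb, genome build hg19) by at least 1 bp was a member. That gave 5 of 12966 WT regions and 4 of 7231 KO regions, or 8 distinct regions of 16077, since 1 region was in both lists. No ZIC2 region was listed in either genotype over PCDHB. The regions lay toward the far end of PCDHA, in PCDHG, and between PCDHA and PCDHB.

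The assay was CUT&Tag for ZIC2, in which an antibody guides a transposase to cut and tag the DNA beside the bound protein. The cells were H1 (WA01), an established human embryonic stem cell line. Per the labels, 2 anti-ZIC2 libraries and 1 normal rabbit IgG library were made from WT cells, and 2 anti-ZIC2 libraries and 1 IgG library from cells with a ZNF263 knockout that the labels call homogeneous. The knockout was made with Cas9, and the series text marks these cells 1-10 without saying what the mark stands for. The sources used here do not say whether the knockout cells were 1 clone, or whether the 2 libraries of a genotype came from separate cultures. Each list holds positions alone, with no height, read count or p-value, so the depth behind a region is unknown. With 1 list per genotype there was no test over samples, and genotype and library cannot be told apart. Absence from a list means only that no region was called, and says nothing of how much binding was lost.

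Protocadherins are cell adhesion proteins of the cadherin family. Each gene of PCDHA and PCDHG is made of its own large first exon, with its own promoter, spliced to short exons that the genes of the group share, whereas PCDHB genes are single exons. Single neurons choose a few of these promoters, and the resulting mixture of proteins lets a neurite recognise branches of its own cell. The C-type genes at the ends of PCDHA and PCDHG (PCDHAC1, PCDHAC2, PCDHGC3, PCDHGC4 and PCDHGC5) are expressed more evenly across neurons. Promoter choice depends on CTCF, a zinc-finger protein that anchors chromatin loops together with cohesin. It binds a short conserved element with the core CGCT that most promoters of the family carry before the gene start. ZIC2 is a factor of early neural and pluripotent cells, and ZNF263 binds DNA through a row of zinc fingers.

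The RefSeq tables (GRCh38.p14) hold 53 protein-coding genes of the 3 groups, 15 in PCDHA, 16 in PCDHB and 22 in PCDHG. Promoter sequence, from 250 bases before the start to 50 after it, was given for 47 of them in 52 windows, since 5 PCDHG genes have a pair of starts. The others are PCDHA3, PCDHA13, PCDHB6, PCDHB11, PCDHGA12 and PCDHGC5. This reference is of another build than the lists, so it was used for names, gene order and promoter letters, and no region was placed on a promoter. The letters of the bound regions themselves are not shown, because no hg19 sequence was used here. The CGCT nearest to 50 bases before the start is shown first, from 2 promoters of each group, because it is the core of their conserved element. Such a short match need not be the element itself. In PCDHGB7 the pair before it is AG, where the others shown have GT or GG. Each stretch is printed 5′ to 3′ on the gene strand with CGCT in capitals.
PCDHA1: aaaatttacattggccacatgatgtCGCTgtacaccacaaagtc
PCDHA10: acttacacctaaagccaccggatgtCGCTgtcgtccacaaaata
PCDHB2: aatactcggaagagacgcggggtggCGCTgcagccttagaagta
PCDHB15: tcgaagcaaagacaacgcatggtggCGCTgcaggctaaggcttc
PCDHGA3: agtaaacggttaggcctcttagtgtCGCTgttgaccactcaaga
PCDHGB7: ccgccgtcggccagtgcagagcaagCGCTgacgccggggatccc

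On either strand, CGCT was present in 51 of the 52 protocadherin windows (98.1%) and in 70.0% of the 35116 promoter windows of the table. PCDHA9 was the window without it. On the gene strand it began from 30 to 90 bases before the start in 42 of 52 windows (80.8%), against 19.1% of all windows, a span chosen after the positions were seen. By gene this was 42 of 47, against 6189 of 27305 in the table. The protocadherin windows were also poorer in G and C, with a median of 40.7% against 58.7% over the table. The groups differed in the letters before the core. In the CGCT nearest to 50 bases before the start, GT stood before it in 11 of 13 PCDHA windows, and GG in 13 of 14 PCDHB windows. In 17 of 25 PCDHG windows, which are of 20 genes, it was another pair. PCDHGB1, PCDHGB4, PCDHGB5, PCDHGB6 and PCDHGC4 each entered with a pair of windows. In 1 window of each, the CGCT taken lay 128 to 239 bases before the start, and all of these are among the 17. GGCGCT, the end of the CTCF consensus, contains CGCT and was searched on both strands. It was in 13 of 14 PCDHB, 1 of 13 PCDHA and 11 of 25 PCDHG windows, against 21.7% of all windows. Those 11 PCDHG windows were of 9 of the 20 genes, since paired windows of a gene were counted separately. On the gene strand alone GGCGCT was in 13 of 14 PCDHB, 0 of 13 PCDHA and 5 of 25 PCDHG windows, against 12.6% of all windows. GTCGCT, added after seeing the data, was in 11 of 13 PCDHA, 2 of 14 PCDHB and 6 of 25 PCDHG windows, against 7.97% of all windows.

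The core of the ZIC family motif, searched as CAGCAGG on both strands, was in 4 of the 52 windows (7.69%, 95% Clopper-Pearson interval 2.14 to 18.5), against 10.5% of all promoter windows. These were the promoters of PCDHA2, PCDHAC1, PCDHAC2 and PCDHGC4, so that 3 of the 4 C-type genes with a promoter in the table held it, and 1 of the 43 other genes. The C-type windows had a median G and C share of 62.3%, against 39.7% for the other windows of the family. In PCDHA2 and PCDHAC2 the match lies after the gene start, so with the 250 bases before the start alone the share was 3.85%, against 8.48% of all windows cut the same way. The core of the ZNF263 motif, searched as GGAGGAGG on both strands, was in 1 of 52 windows (1.92%), that of PCDHGA1, against 10.9% of all windows. These 3 stretches before the start are shown because they are the ones that hold a core of either factor of this study. The matches are in capitals. PCDHAC1 has a pair of matches within a repeat, the first 169 and the second 142 bases before the start, and PCDHGC4 has its match on the other strand.
PCDHAC1: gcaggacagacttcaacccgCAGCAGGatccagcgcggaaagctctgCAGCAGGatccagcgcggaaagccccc
PCDHGC4: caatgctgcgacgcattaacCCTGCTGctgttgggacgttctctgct
PCDHGA1: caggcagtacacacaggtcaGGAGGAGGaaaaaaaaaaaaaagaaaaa
A match of letters is a description and not a binding site.

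**Figure D1:**
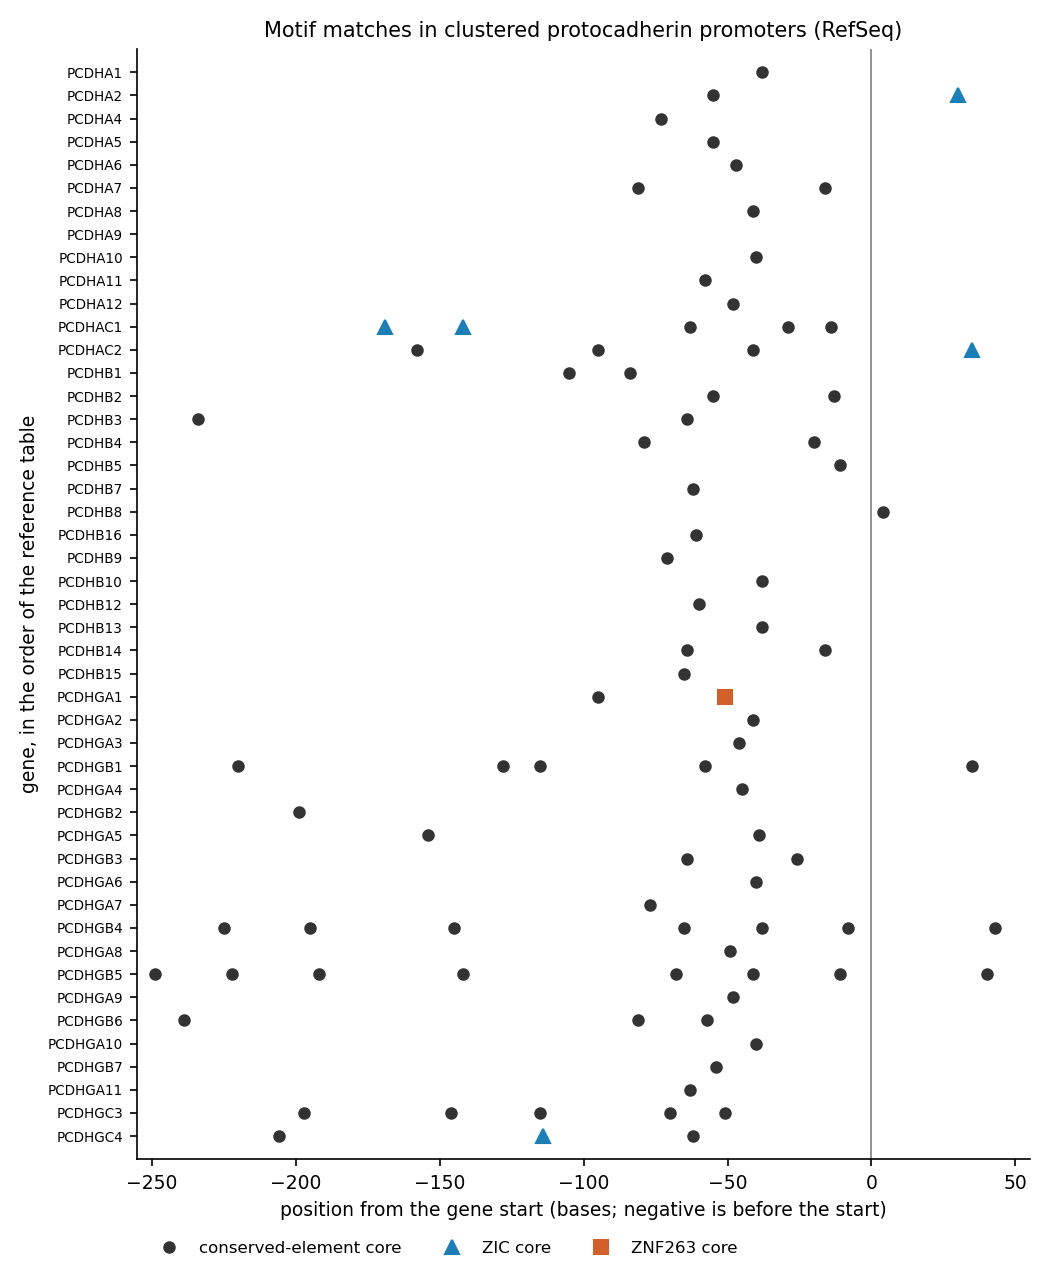
Matches in the promoter windows of 47 clustered protocadherin genes, by distance from the gene start in bases, with genes from top to bottom in reference order. Dots are all matches of CGCT, the letters of the conserved-element core, on the gene strand. Such a short match need not be the element, and 54.3% of all promoter windows hold one on that strand, against 98.1% here. Triangles are the ZIC core and squares the ZNF263 core on either strand. Genes with a pair of starts carry the matches of both windows. A dot stands between 30 and 90 bases before the start in 42 of 52 windows, the 5 triangles fall in 4 genes, and the single square is in PCDHGA1.

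Within PCDHA (140160001 to 140400000, 240 kb), the WT list held 2 regions and the KO list 3, which made 4 distinct regions. From the start of the group, the first was a WT-only region of 228 bp at chr5:140306052-140306279, 146.1 kb into the stretch. The second was a KO-only region of 150 bp, the smallest width in the lists, at chr5:140365761-140365910. The third was a KO-only region of 603 bp at chr5:140381776-140382378, the widest of all 8 members. The fourth, of 340 bp at chr5:140383787-140384126, was called in both genotypes with the same edges. The first 146 kb of the PCDHA stretch thus held no region in either list, and all 4 regions lay in its last 40%. In the reference order the first gene of the group is PCDHA1 and the last are the C-type genes PCDHAC1 and PCDHAC2. That order gives no distances, and no region was placed on any of these genes.

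The last 3 of these regions stood within 18.4 kb, or 7.65% of the PCDHA stretch. The wide KO-only region ended 1408 bp before the shared one, so a region called in KO alone lay next to one called in both genotypes. Regions with 2 others at such distances are not rare in these lists. Of the 16045 distinct regions on assembled chromosomes, 16.1% had at least 2 others with midpoints within 20 kb, a distance chosen after seeing the data. The 20 kb was taken to either side, so a group counted there can span more than the 18.4 kb of these 3 regions. Widths set the 603 bp region apart from most KO-only regions. Of all KO-only regions, 93.8% were no wider than it and 6.33% reached 600 bp. The shared 340 bp region was narrow for its class, since 30.5% of shared regions were no wider. The WT-only region of 228 bp stood near the middle of its class, with 61.8% no wider.

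In the 30 kb between PCDHA and PCDHB the WT list held 1 region of 150 bp at chr5:140420718-140420867, and the KO list none. It lies 20.7 kb past the end of the PCDHA stretch and 9.13 kb before the start of the PCDHB stretch, edges that are themselves approximate.

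Over PCDHB (140430001 to 140630000, 200 kb, 16 coding genes) both lists were empty. The exact 95% Poisson interval of a count of 0 reaches 18.4 regions per Mb here, above the densities of PCDHA in both lists, so a density like that of PCDHA was not excluded by the count. Windows of this size were mostly empty over the genome, though the flanks of this locus were denser in regions than the genome average. Unsequenced gaps were not masked, which can only raise the empty shares. Of 15247 windows of 200 kb that tile the assembled chromosomes, 53.8% held no region of either list, 58.3% no WT region and 72.4% no KO region. With each stretch extended by 10 kb, PCDHB took in the WT-only region before it and had 4.55 WT regions per Mb. The 80 kb between PCDHB and PCDHG, where the reference order places SLC25A2 (a mitochondrial carrier of the ornithine family) and TAF7 (a subunit of the general factor TFIID), were empty as well.

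The empty stretch around PCDHB ran from 140420868 to 140793222, 372.4 kb without a region of either list. It covered the whole of PCDHB and the first 83 kb of PCDHG. The median distance between neighbouring distinct regions was 61.6 kb, and 11.5% of such distances (1848 of 16021) were at least as long. In the KO list alone the empty stretch reached from 140384127 to 140894045, or 509.9 kb, against a median of 120.1 kb, and 18.7% of distances in that list were as long. Much of the genome lies in stretches of that kind, 58.1% of its length for the 2 lists combined, with unsequenced gaps included.

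Within PCDHG (140710001 to 140900000, 190 kb) the WT list held 2 regions and the KO list 1, and the lists shared none. The WT-only regions were 150 bp each, at chr5:140793223-140793372 and chr5:140863803-140863952. They lay 70.4 kb apart. The KO-only region, of 179 bp at chr5:140894046-140894224, was 5.78 kb from the end of the stretch, and 53.0% of KO-only regions were no wider. In the reference order the last genes of PCDHG are the C-type genes PCDHGC3, PCDHGC4 and PCDHGC5, and no region was placed on them. The next region, of 297 bp at chr5:140904363-140904659, was shared and began 4.36 kb past the edge of the cluster, and so was counted with the flank. With all edges extended by 10 kb it joined PCDHG, whose KO density became 9.52 per Mb in place of 5.26. With edges shortened by 10 kb PCDHG held 0 KO regions. The 2 WT regions of PCDHG have the minimum width, and among regions wider than 150 bp the WT count of PCDHG was 0.

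**Figure D2:**
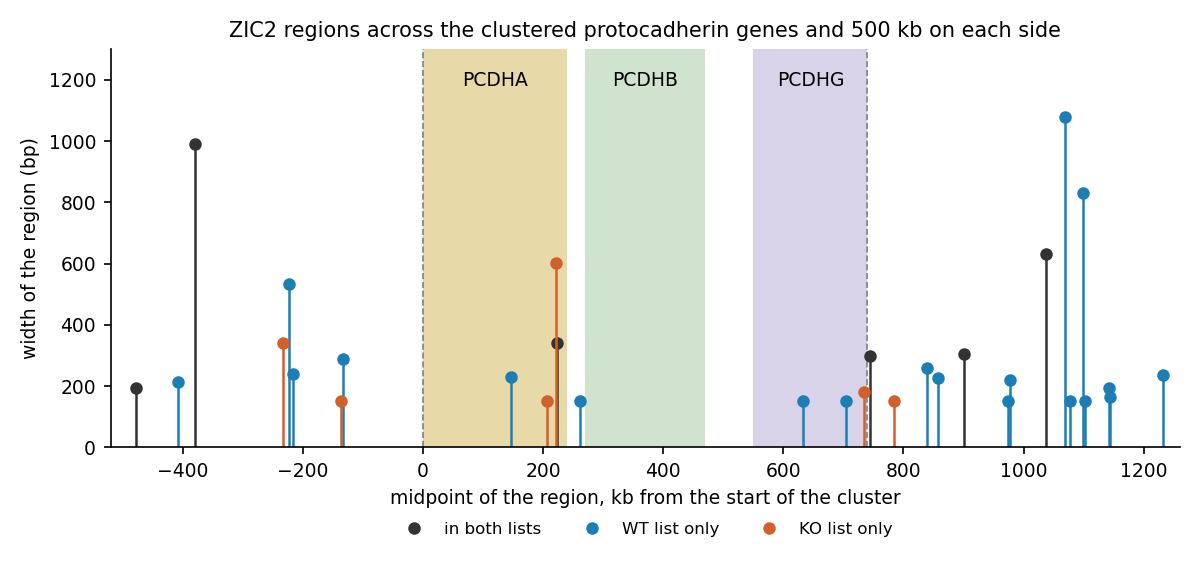
ZIC2 regions over the cluster and 500 kb on each side, each drawn at its midpoint (kb from the start of the cluster) with its width in bp as height. Colours give the list, shaded bands the 3 gene groups and dashed lines the edges of the cluster. The band of PCDHB is empty, 3 regions stand close together at the end of PCDHA, and the tallest region inside the edges is the KO-only one of 603 bp.

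Taken as 1 stretch, the cluster had 6.76 WT regions per Mb (95% exact Poisson interval 2.19 to 15.8) and 5.41 KO regions per Mb (1.47 to 13.8). The 500 kb before PCDHA, where the reference order has ZMAT2 and the histidyl-tRNA synthetase genes HARS2 and HARS1 next to the cluster, held 6 WT and 4 KO regions. The 500 kb after PCDHG, where it has the actin regulator DIAPH1 and the histone deacetylase HDAC3, held 14 WT and 4 KO regions. Both flanks together therefore had 20.0 WT regions per Mb (12.2 to 30.9) and 8.0 KO regions per Mb (3.45 to 15.8). The WT density of the cluster was 0.338 of that of the flanks (95% exact interval 0.0991 to 0.928), and the KO density 0.676 (0.149 to 2.52). Such intervals hold counting error alone, and neighbouring regions are not independent. Under the other edges, flank sizes and width limits the WT ratio lay between 0.159 and 0.450. Its interval reached past 1 with edges extended (up to 1.08) or shortened (1.01) by 10 kb and with flanks of 250 kb (1.25) or 1 Mb (1.17). The WT contrast rested on the flank after PCDHG, since against the flank before PCDHA alone the ratio was 0.563 (0.136 to 2.21), and against the flank after PCDHG 0.241 (0.068 to 0.709).

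The density of the cluster was above the genome average in value, though not beyond counting error. Chromosome 5 had 3.23 WT and 1.66 KO regions per Mb, and the assembled chromosomes 4.24 and 2.36. The cluster held 1.59 times the WT density of the assembled chromosomes (0.517 to 3.72) and 2.29 times the KO density (0.623 to 5.86), and both intervals include 1. The flanks held 4.72 times (2.88 to 7.29) and 3.39 times (1.46 to 6.68). Of 4111 windows of 740 kb over the genome, with unsequenced gaps not masked, 75.4% had fewer WT regions than the 5 of the cluster and 18.8% had more. Of the same windows 84.0% had fewer KO regions than its 4 and 10.8% had more. By bound length, WT regions covered 0.138% of the cluster, close to the 0.142% of the assembled chromosomes, and 0.734% of the flanks. KO regions covered 0.172% of the cluster, against 0.0944% and 0.306%, the same order as by count. The KO length in the cluster was 1272 bp, of which the widest region made up 603 bp.

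**Figure D3:**
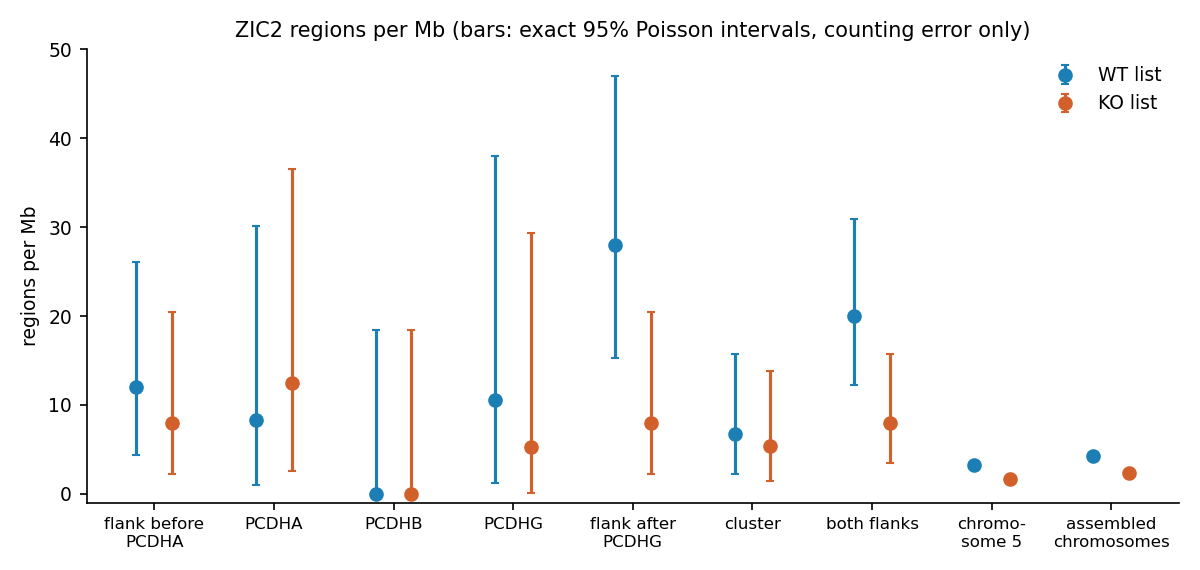
ZIC2 regions per Mb (y axis) in each gene group, each flank, the cluster, both flanks, chromosome 5 and the assembled chromosomes, for the WT and KO lists. Points are counts per Mb and bars their exact 95% Poisson intervals. The WT point of the cluster (6.76) lies below that of both flanks (20.0) and above that of the assembled chromosomes (4.24), with wide bars for the single gene groups.

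**Figure D4:**
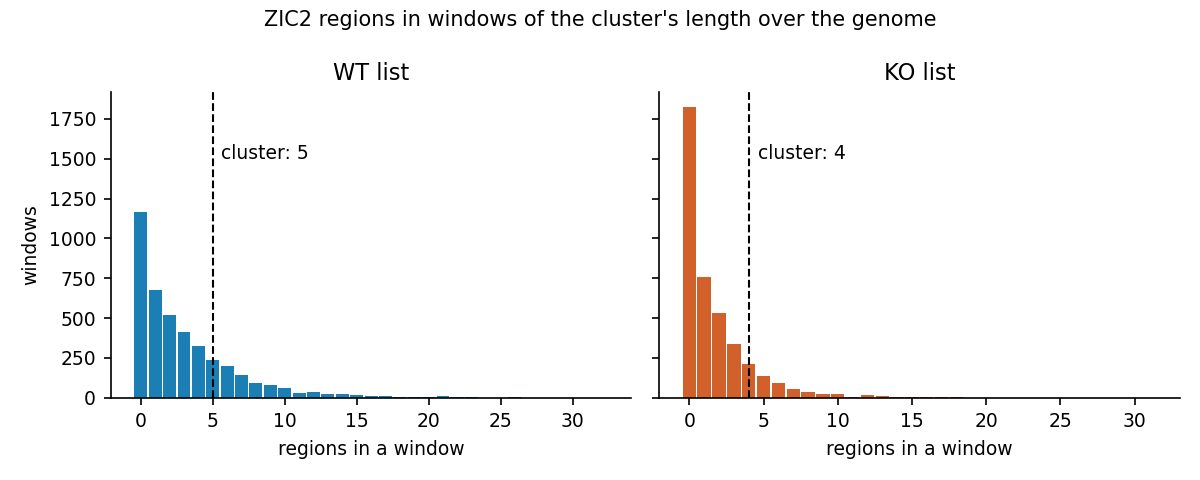
Number of genome windows of 740 kb (y axis) by the number of ZIC2 regions they hold (x axis), for the WT list on the left and the KO list on the right. The dashed lines mark the cluster, at 5 WT and 4 KO regions, to the right of the median windows at 2 and 1.

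Of the 5 WT regions of the cluster, 4 were not called in KO, which is 80.0% (95% Clopper-Pearson interval 28.4 to 99.5). Over the whole WT list the share was 68.2%, inside that interval. In the flanks it was 75% (50.9 to 91.3), with 15 of 20. Of the 4 KO regions of the cluster, 3 were not called in WT, or 75% (19.4 to 99.4), against 43.0% over the whole KO list and 37.5% (8.52 to 75.5), 3 of 8, in the flanks. The cluster thus held 4 WT-only, 3 KO-only and 1 shared region, with 80.0 KO regions per 100 WT regions against 40 in the flanks and 55.7 over the assembled chromosomes. At these counts none of the cluster's shares could be told from those of the whole lists. Among the 129 genome windows of 740 kb with 8 distinct regions, as many as the cluster, the median was 1 KO-only and 2 shared regions. At least 3 KO-only regions were found in 25 of them (19.4%), and at most 1 shared region in 39 (30.2%). The share of the cluster's WT regions not called in KO was 50.0% among regions wider than 150 bp, where 2 WT regions remained.

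The 5 WT regions ran from 150 to 340 bp with a median of 150 bp, and 3 of them had the minimum width. That is 60% (95% Clopper-Pearson interval 14.7 to 94.7), an interval that includes the 27.1% of WT regions on the assembled chromosomes, and in the flanks it was 15%. The 4 KO regions ran from 150 to 603 bp with a median of 259.5 bp. Of these 1 had the minimum width (25%), against 19.1% of KO regions on the assembled chromosomes and 25% in the flanks. In the flanks the medians were 237.5 bp for WT and 301.5 bp for KO regions, and over the assembled chromosomes 250 bp and 334 bp. These medians mix shared with unshared regions. On the assembled chromosomes 57.0% of KO and 31.7% of WT regions were shared. Over the whole lists, the shared class had a median width of 460 bp. The WT-only class had 181 bp and the KO-only class 167 bp. The higher KO median of the lists therefore does not mean wider regions in KO. In the cluster the KO-only median was 179 bp (3 regions) and the WT-only median 150 bp (4 regions). Of the 8 distinct regions 1 reached 600 bp, as did 4 of the 23 in the flanks and 12.1% of all distinct regions in the lists. The widest region of the flank before PCDHA was shared, with 990 bp at chr5:139780454-139781443. Its widest WT-only region had 534 bp at chr5:139936972-139937505 and its widest KO-only region 341 bp at chr5:139927021-139927361. In the flank after PCDHG the widest was WT-only, with 1080 bp at chr5:141228426-141229505, and 99.8% of WT-only regions were no wider. The widest shared region there had 630 bp at chr5:141196170-141196799. Its KO-only region was 1 alone, of 150 bp at chr5:140943789-140943938. Among regions wider than 150 bp the WT density of the cluster was 2.70 per Mb, from 2 regions with a median width of 284 bp, and the WT ratio to the flanks 0.159 (0.0178 to 0.670).

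By gene group the list with more regions varied. PCDHA had 8.33 WT and 12.5 KO regions per Mb, PCDHG 10.5 WT and 5.26 KO regions per Mb, and PCDHB none. The intervals of PCDHA (1.01 to 30.1 for WT, 2.58 to 36.5 for KO) and of PCDHG (1.27 to 38.0 and 0.133 to 29.3) overlap widely, so no order of the groups could be read from these counts. Of windows of the same length over the genome, unsequenced gaps not masked, 3.13% held more KO regions than the 3 of PCDHA. A further 2.94% held as many. For the 2 WT regions of PCDHA, 13.3% held more and 11.3% as many. For the 1 KO region of PCDHG, 10.2% held more and 16.4% as many. For its 2 WT regions, 9.80% held more and 9.62% as many.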

How the data were processed

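Lists of ZIC2 peaks on hg19 were deposited by the authors, 1 per genotype, with chromosome, start and end and no other value. The submitters' processing notes name Bowtie2, Picard and hg19. Not given in the sources used here are the peak caller and its threshold, how replicates were pooled, and how the IgG libraries (not analysed here) were used. All 4120 regions found in both lists had identical edges, so the width of a shared region is 1 value for both genotypes. An overlap of at least 1 bp counted as shared. Group edges are those of the rule, given to 10 kb. Counts have exact Poisson and shares exact Clopper-Pearson 95% intervals, both for counting error only. Chromosome lengths were taken as the last region end of either list. Regions were named by a rule, every region of the cluster and, of each flank, the widest of each class. The shared region of 297 bp just past PCDHG was named in addition, after its values were seen. With no hg19 annotation, genes near a region, and other genes of the pathway (CTCF, cohesin and non-clustered protocadherins), were not analysed here. The members, motifs and lists were chosen with earlier results of these data known. Python 3.11.15, pandas 2.3.3, numpy 2.4.6, scipy 1.17.1 and matplotlib 3.10.9 were used, and the routines were tested on simulated data.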

Additional observations from a re-analysis of the deposited data

How the results depend on the processing

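Over 25 results, 96 of 98 alternative values lay inside the interval of the reported value, which is wide at these counts. The 2 outside were both in PCDHG, with 0 KO regions per Mb when the stretches were shortened by 10 kb and 0 WT regions per Mb among regions wider than 150 bp. Assignment by midpoint moved no value of the cluster. Counting regions within 1 kb as shared could move none of the cluster or flanks. There, regions of 1 list only lay at least 1408 bp from any region of the other list. Asking for 50% reciprocal overlap could move none either, because all 4120 shared regions have identical edges. The values of both settings are among the 96 and say nothing about the definition of shared. Joining regions within 1 kb moved the WT density of the flanks to 19.0 per Mb, and windows shifted by 370 kb moved the share of windows with at most 5 WT regions from 81.2% to 81.7%. No paired analysis was possible because both replicates went into a single list per genotype, and no replicate could be left out. Without read counts, a region just under the caller's threshold looks the same as an unbound one.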
